A study of Mus musculus with 16 samples.

Results

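The H2AK119ub1 and H3K27me3 libraries of normal bone stroma were set against each other, promoter by promoter, to find which promoters carried both Polycomb marks and which carried either mark in excess of the other. They are 4 of the 16 libraries of a chromatin immunoprecipitation sequencing (ChIP-seq) series on endosteal MSCs, mesenchymal stromal cells that line bone where it meets the marrow. The deposited table covers 10 kb around the start of 3925 genes, and the 3789 on autosomes were taken, each with the central 4 kb as its promoter. Each of the 3789 carries an authors' mark, UP (1849) or DOWN (1940), and the table holds only part of the mouse genes. Of 39 listed Hox genes it gave 5, and of 180 developmental transcription factors 30. Medians, top 10% lists and shares of all promoters below therefore describe this list, not every promoter of the cells. All libraries came from C57BL/6J mice. The controls, called WT, carry floxed Bap1 alleles (Bap1fl/fl) without a recombinase, and the cKO mice of the same floxed genotype also carry Prx1-cre, a recombinase driven in limb mesenchyme. BAP1 is the deubiquitinase of H2AK119ub1. No source used here gives the animals' age or sex, or says that replicate libraries were made from different mice. The p-values below therefore rest on the spread of library pairs, and that spread may be technical.

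Polycomb repressive complex 1 (PRC1) attaches a ubiquitin to a lysine of histone H2A, giving H2AK119ub1, and Polycomb repressive complex 2 (PRC2) trimethylates a lysine of histone H3, giving H3K27me3. Each complex has subunits that recognise the other's product, so the marks often occupy the same CpG-rich promoters, typically those of developmental regulators that a differentiated cell keeps silent. Variant forms of PRC1 can also place the ubiquitin without H3K27me3, and a low level of H2AK119ub1 is spread through the genome.

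The WT H2AK119ub1 libraries held 2165089 and 2096676 counts over all bins and the H3K27me3 libraries 1283020 and 1334508. Each read was counted in 3 neighbouring bins, so that these correspond to between 429493 and 724936 reads. The median promoter held 227 and 215 counts of H2AK119ub1 and 94 and 107 of H3K27me3, so single promoters were measured more precisely for H2AK119ub1. Replicates of H2AK119ub1 and of H3K27me3 were further apart than counting error alone gives, with a chi-square of 2.10 and 2.44 for each degree of freedom. Of 16 stromal marker genes 12 were measured, and 9 of these had H3K4me3, a mark of active promoters, at or above the median of all autosomal promoters. None of the 10 blood and 7 endothelial marker genes was analysed here, so other cells in the preparation were not tested. The labels of the H3K4me3 and H3K27ac libraries disagree with their antibody fields, which name each other's target, and the titles are followed here.

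Both marks rose and fell together across promoters, and H3K27me3 covered much the wider range. Values are CPM, a promoter's counts scaled to a common library size over the autosomal windows. The median promoter had 99.97 CPM of H2AK119ub1 and 85.3 of H3K27me3. At the 90th percentile H2AK119ub1 was 1.66 times its median, and H3K27me3 was 3.03 times its own. The highest mean of H3K27me3 was 1002 CPM, at Podxl. When promoters were ordered by H3K27me3 and divided into 10 groups of equal size, the median H2AK119ub1 went from 49.2 CPM in the lowest group to 100.4 in the fifth and 169 in the highest. The median H3K27me3 of those groups was 34.5, 80.2 and 377 CPM. As a description across 3789 promoters, which are not independent and share the same windows and libraries, the log2 CPM of the marks correlated at Pearson r 0.806 (Spearman's coefficient 0.765). Replicates of the same mark correlated at r 0.905 for H2AK119ub1 and 0.878 for H3K27me3. Between the marks, r was 0.755 over the 3750 promoters tested below, without 39 that held almost no counts. Among promoters above the median of both marks it was 0.526.

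**Figure D1:**
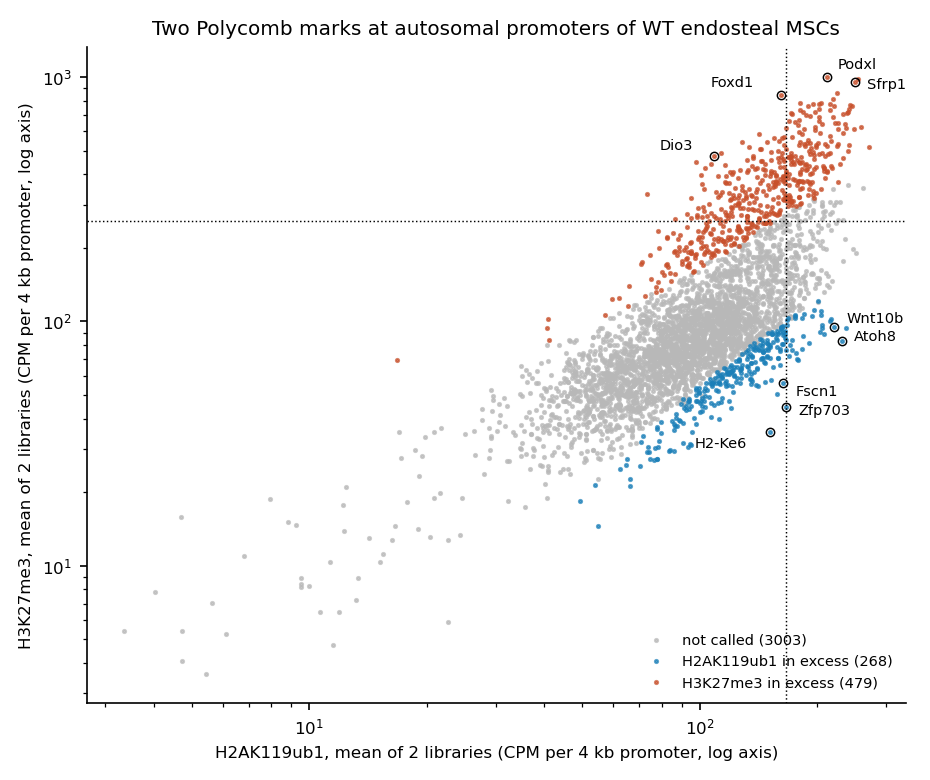
Mean CPM of the 2 H3K27me3 libraries (vertical) against the mean of the 2 H2AK119ub1 libraries (horizontal), both log axes, for the 3750 tested promoters of WT endosteal MSCs; colours give the calls of the test, circles mark named genes and dotted lines the top 10% of each mark. The cloud runs along the diagonal, and the H3K27me3-excess promoters form its steep upper end, up to 1002 CPM at Podxl.

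H3K27me3 was in excess of H2AK119ub1 at 479 of 3750 tested promoters (12.8%) and H2AK119ub1 in excess of H3K27me3 at 268 (7.15%), by edgeR's quasi-likelihood test with Benjamini-Hochberg adjustment at 0.05, and 3003 were not called. An excess here is relative to the typical 10 kb window, not a ratio of molecules, and the median log2 ratio of H2AK119ub1 over H3K27me3 was 0.12. H2AK119ub1 took 35.9% of the calls. With total counts in place of the scaling factors it took 57.1% (517 of H2AK119ub1 excess against 389 of H3K27me3 excess), the median log2 ratio rising by 0.20. With library sizes from the outer 1 kb flanks it took 58.1% (560 against 403), the median rising by 0.18. With factors from promoters it took 25.7% (190 against 549). The H2AK119ub1 calls also rested on single libraries: 37 were made without H2AK119ub1 replicate 1, 91 without replicate 2, and 154 and 334 without H3K27me3 replicates 1 and 2. The H3K27me3 calls numbered 308, 251, 316 and 510 in the same order. All 4 of these fits called 203 of the 479 H3K27me3-excess promoters (42.4%) but 15 of the 268 H2AK119ub1-excess promoters (5.60%).

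The strongest excess of H3K27me3 was at Foxd1, which encodes a forkhead transcription factor of kidney and retinal development. Its promoter (GRCm38 chr13:98352242-98356241, plus strand) held 905 and 777 CPM of H3K27me3 and 174 and 149 CPM of H2AK119ub1. Both H3K27me3 libraries thus stood far above both H2AK119ub1 libraries, with a log2 ratio of -2.38 ± 0.28 (SE, n = 2 libraries a mark) and an edgeR adjusted p of 5.91e-07. Podxl, encoding the sialomucin podocalyxin, held more of both marks, with 1112 and 892 CPM of H3K27me3 and 228 and 195 of H2AK119ub1 (log2 ratio -2.24 ± 0.28, edgeR adjusted p = 1.30e-06). Rragd, a Rag GTPase of amino acid signalling to mTORC1, differed from these in its low H2AK119ub1, 73.3 and 122 CPM, beside 515 and 388 CPM of H3K27me3 (log2 ratio -2.21 ± 0.29, edgeR adjusted p = 1.44e-06). The 250 bases before the RefSeq start of Foxd1 (chr13:98353995-98354244, plus strand) and of Rragd (chr4:32982748-32982997, plus strand) are shown 5′ to 3′ because they are the H3K27me3-excess promoters of lowest p outside shared windows for which RefSeq's table for GRCm38.p6 holds a sequence. CpG dinucleotides, the target of the proteins that recruit Polycomb complexes to CpG islands, are in capitals.
Foxd1: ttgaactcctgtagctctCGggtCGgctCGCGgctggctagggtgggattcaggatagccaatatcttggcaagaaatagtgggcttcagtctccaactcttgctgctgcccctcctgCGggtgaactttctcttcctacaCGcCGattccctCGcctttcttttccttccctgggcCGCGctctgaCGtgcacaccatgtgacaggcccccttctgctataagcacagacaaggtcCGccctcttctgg
Rragd: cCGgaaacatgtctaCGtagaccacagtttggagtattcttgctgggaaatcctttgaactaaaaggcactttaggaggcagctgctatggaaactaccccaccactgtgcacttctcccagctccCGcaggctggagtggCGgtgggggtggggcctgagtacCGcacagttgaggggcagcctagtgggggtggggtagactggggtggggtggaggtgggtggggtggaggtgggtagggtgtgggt
Foxd1 has 12 CpG in this stretch and Rragd 5, an observed over expected ratio of 0.600 and 0.255.

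The other H3K27me3-excess promoters of lowest p had fitted H3K27me3 levels 3.92 to 4.35 times those of H2AK119ub1. Nog, the secreted BMP antagonist noggin, held 556 and 527 CPM of H3K27me3 and 116 and 141 of H2AK119ub1. Igfbp5, which binds insulin-like growth factors, held 881 and 683 CPM of H3K27me3 and 200.2 and 161 of H2AK119ub1. Dio3, the thyroid hormone-inactivating deiodinase, held 497 and 450.2 CPM of H3K27me3 and 110 and 108 of H2AK119ub1, in a window that overlaps another gene's, and reads of that overlap belong to both. The group also held Fzd3, a Wnt receptor, Rnf220, an E3 ubiquitin ligase, Osbpl6, an oxysterol-binding protein, Slc22a23, a solute carrier, and Jakmip3 and Hdgfl3. At each of these 12 promoters both H3K27me3 libraries lay above both H2AK119ub1 libraries, as the naming rule requires and as 25.5% of all tested promoters did. Every alternative that included them kept the call at all 12.

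**Figure D2:**
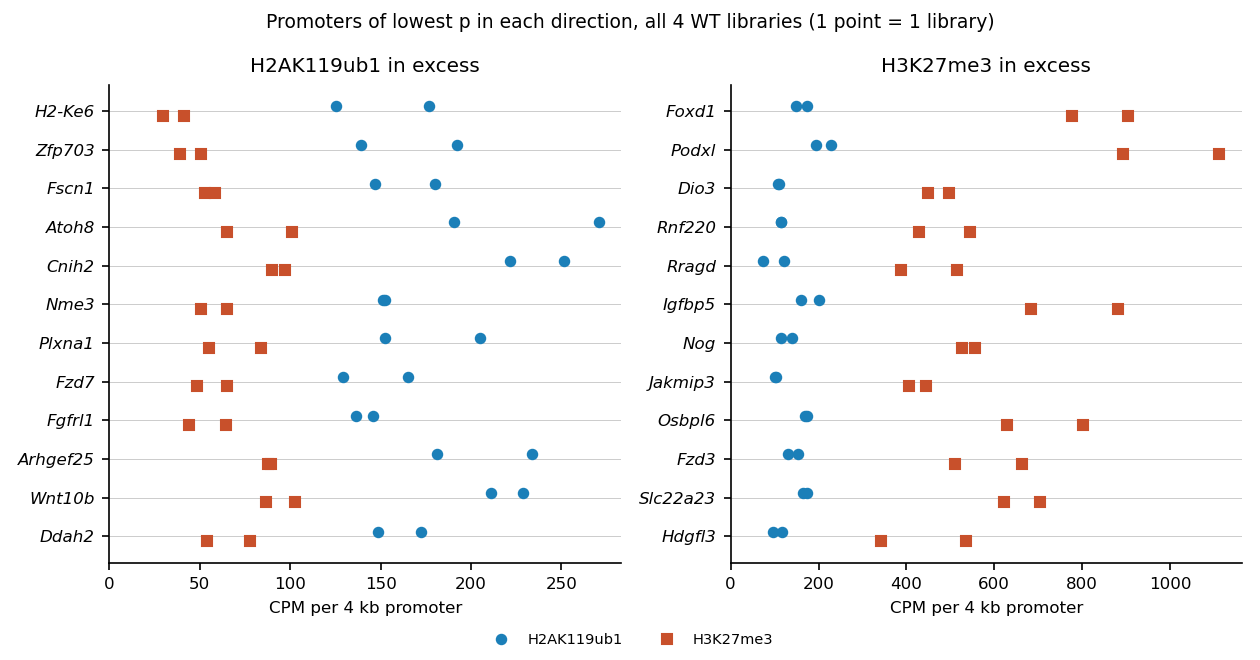
CPM per 4 kb promoter in each WT library (circles H2AK119ub1, squares H3K27me3) for the 12 genes named on either side by p, with a separate linear axis from 0 in each panel. At Foxd1 the H3K27me3 libraries lie at 777 and 905 CPM and the H2AK119ub1 libraries at 149 and 174, and at H2-Ke6 the order is the other way round, at 29.7 and 41.0 against 125 and 177.

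H2AK119ub1 was in clearest excess at H2-Ke6 (also Hsd17b8), a hydroxysteroid dehydrogenase gene of the major histocompatibility region. Its promoter (chr17:34026057-34030056, minus strand) held 177 and 125 CPM of H2AK119ub1 and 29.7 and 41.0 of H3K27me3 (log2 ratio 2.09 ± 0.32, edgeR adjusted p = 7.37e-06). Zfp703, a zinc finger transcriptional regulator, held 139 and 192 CPM of H2AK119ub1 and 38.8 and 50.7 of H3K27me3 (log2 ratio 1.89 ± 0.30, edgeR adjusted p = 1.18e-05). Fscn1, the actin-bundling protein fascin (chr5:142958343-142962342, plus strand), held 180.1 and 147 CPM of H2AK119ub1 and 58.6 and 53.1 of H3K27me3 (log2 ratio 1.55 ± 0.28, edgeR adjusted p = 8.48e-05). The H2AK119ub1 of these promoters was thus above the median of 99.97 CPM without being extreme, and their H3K27me3 was below its median. The 250 bases before the RefSeq starts of H2-Ke6 (chr17:34028056-34028305, minus strand) and Fscn1 (chr5:142960105-142960354, plus strand) were chosen by the same rule and follow with CpG in capitals.
H2-Ke6: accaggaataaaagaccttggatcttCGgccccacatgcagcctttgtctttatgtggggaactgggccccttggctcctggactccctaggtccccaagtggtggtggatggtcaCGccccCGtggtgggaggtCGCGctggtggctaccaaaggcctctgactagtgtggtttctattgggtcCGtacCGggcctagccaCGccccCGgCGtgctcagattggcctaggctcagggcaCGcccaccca
Fscn1: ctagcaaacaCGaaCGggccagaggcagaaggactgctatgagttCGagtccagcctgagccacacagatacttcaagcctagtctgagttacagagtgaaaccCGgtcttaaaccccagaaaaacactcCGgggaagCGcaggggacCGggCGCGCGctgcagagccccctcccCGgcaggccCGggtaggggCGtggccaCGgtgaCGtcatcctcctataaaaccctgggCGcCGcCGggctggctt
H2-Ke6 has 11 CpG (observed over expected 0.458) and Fscn1 18 (0.740).

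Among the other H2AK119ub1-excess promoters of lowest p, Atoh8, a basic helix-loop-helix factor, held 271 and 191 CPM of H2AK119ub1 beside 101 and 65.1 of H3K27me3. Wnt10b, a Wnt ligand that favours bone formation over fat, held 229 and 211 CPM of H2AK119ub1 and 86.5 and 103 of H3K27me3. Cnih2, an auxiliary subunit of AMPA receptors, held 251 and 221 CPM beside 97.3 and 90.04. Nme3, a nucleoside diphosphate kinase in a shared window, Ddah2, Plxna1, a semaphorin receptor, Fzd7, a Wnt receptor, Fgfrl1, an FGF receptor-like protein, and Arhgef25, a guanine nucleotide exchange factor, completed the 12, with fitted H2AK119ub1 levels 2.35 to 2.63 times those of H3K27me3. Both H2AK119ub1 libraries exceeded both H3K27me3 libraries at all 12, again by the naming rule, against 34.1% of all tested promoters. Leaving out H2AK119ub1 replicate 1 ended the calls of Plxna1 and Arhgef25, and narrowing the promoter to 1 kb on each side ended those of Fzd7 and Fgfrl1. The other 8 kept their calls under every alternative that included them.

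Rich in both marks, meaning in the top 10% of promoters for each, were 201 promoters, which is 53.03% of each list of 379. The lists begin at 166 CPM of H2AK119ub1, with Sema4g at 165.7 just inside and Egfl7 at 165.7 just outside, and at 258 CPM of H3K27me3, with Il17rd at 258.3 inside and Cacna1a at 258.1 outside. These classes were chosen by the values themselves and are given without a test. Their median was 191 CPM of H2AK119ub1 and 437 of H3K27me3, and 163 of the 201 were also called as H3K27me3 excess, 38 were not called and 0 were called as H2AK119ub1 excess. Igf2bp1, an RNA-binding protein of fetal tissues, held 265 and 243 CPM of H2AK119ub1 and 1080 and 888 of H3K27me3. Sfrp1, a secreted Wnt antagonist, held 261 and 237 CPM of H2AK119ub1 and 1060 and 844 of H3K27me3. Gata2, a transcription factor of blood stem cells, held 229 and 211 CPM of H2AK119ub1 and 958 and 670 of H3K27me3. Among the further promoters highest in both were those of Podxl, Ank1, an ankyrin, the transcription factors Foxf1 and Gata6, the potassium channel Kcnj4, the secreted factor Ndnf, the polarity protein Pard6b, and Prob1. The promoter of Gata2 (chr6:88193641-88193890, plus strand) is shown for the class, again as the 250 bases before the RefSeq start with CpG in capitals.
Gata2: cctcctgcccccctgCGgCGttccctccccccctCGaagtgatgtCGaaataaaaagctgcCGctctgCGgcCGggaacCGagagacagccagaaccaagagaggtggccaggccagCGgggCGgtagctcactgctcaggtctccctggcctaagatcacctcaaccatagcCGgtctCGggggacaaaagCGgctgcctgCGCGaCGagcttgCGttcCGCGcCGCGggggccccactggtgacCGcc
It has 22 CpG, an observed over expected ratio of 0.785.

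Promoters rich in either mark and below the median of the other were few. Rich in H2AK119ub1 with low H3K27me3 were 13, among them Zfp703, Atoh8 and Plxna1 and, named after their values were seen, Nfatc1, a calcium-regulated transcription factor, Lgr6, an R-spondin receptor, Arc, a synaptic immediate-early gene, and Pik3r2, a regulatory subunit of phosphoinositide 3-kinase. Nfatc1 held 174 and 163 CPM of H2AK119ub1 and 75.7 and 69.1 of H3K27me3, and its call was kept under every alternative. The calls of Lgr6 and Pik3r2 were lost without H2AK119ub1 replicate 1 and that of Arc without H3K27me3 replicate 2. Rich in H3K27me3 with low H2AK119ub1 were 9, Rragd and, again named after their values were seen, Pus3, Sox11, Adamtsl3, Pde3b, Chst8, Trpc1, Atp6v1c2 and the unnamed gene ENSMUSG00000006586. Sox11, a neural transcription factor, held 304 and 240.4 CPM of H3K27me3 and 112 and 85.1 of H2AK119ub1. The call of Trpc1 was lost without H3K27me3 replicate 1. The second class rests on H2AK119ub1 replicate 1, without which it held 21 promoters. H3K27me3 excess seldom meant little H2AK119ub1: 407 of the 479 H3K27me3-excess promoters (85.0%) lay above the median of H2AK119ub1, and their median was 143 CPM beside 99.97 for all promoters. By contrast 228 of the 268 H2AK119ub1-excess promoters (85.1%) lay below the median of H3K27me3. Both shares follow in part from the ratio that chose the sets and are descriptions.

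Over all 3750 tested promoters the marks had similar profiles along the 10 kb windows. Within 500 bp of the start H2AK119ub1 was 1.12 and 1.01 times its level in the outer 1 kb flanks in the 2 libraries, and H3K27me3 1.23 and 1.16 times. The profiles of the called sets follow in large part from their choice by the ratio over the central 4 kb and are descriptions. In the H3K27me3-excess set, H3K27me3 within 500 bp of the start was 2.50 and 2.36 times its level in the outer 1 kb flanks, and H2AK119ub1 there was 1.49 and 1.31 times its flank level. The peak of H3K27me3 was 64.7 and 51.5 CPM per 500 bp, just downstream of the start, while H2AK119ub1 peaked at 21.7 and 19.03. In the H2AK119ub1-excess set, H3K27me3 dipped at the start to 0.559 and 0.613 of its flank level in the 2 libraries. H2AK119ub1 in that set was 1.183 and 1.041 times its flanks at the start and peaked at 20.0 and 17.5 CPM per 500 bp, centred 750 bp downstream. The H2AK119ub1 profile was therefore lower around the start itself than to either side, as it also was over all tested promoters. There the mean was 11.7 and 12.8 CPM per 500 bp on the 2 sides of the start. Centred 750 bp upstream and downstream it was 13.6 and 14.5. Over all windows, 42.5% ± 1.29 (SD, n = 2) of H2AK119ub1 counts and 43.6% ± 0.778 of H3K27me3 counts lay within 2 kb of the starts, where 40% of the window's length lies. The libraries of the marks overlapped (exact permutation p = 0.667, two-sided; 2 against 2 libraries cannot go below 0.3333). Within 500 bp, 10% of the length, H2AK119ub1 had 10.2% and 9.58% of its counts and H3K27me3 11.1% and 10.8%. There both H3K27me3 libraries lay above both H2AK119ub1 libraries, as they did within 1 kb, with the smallest p this design allows (exact permutation p = 0.3333, two-sided).

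**Figure D3:**
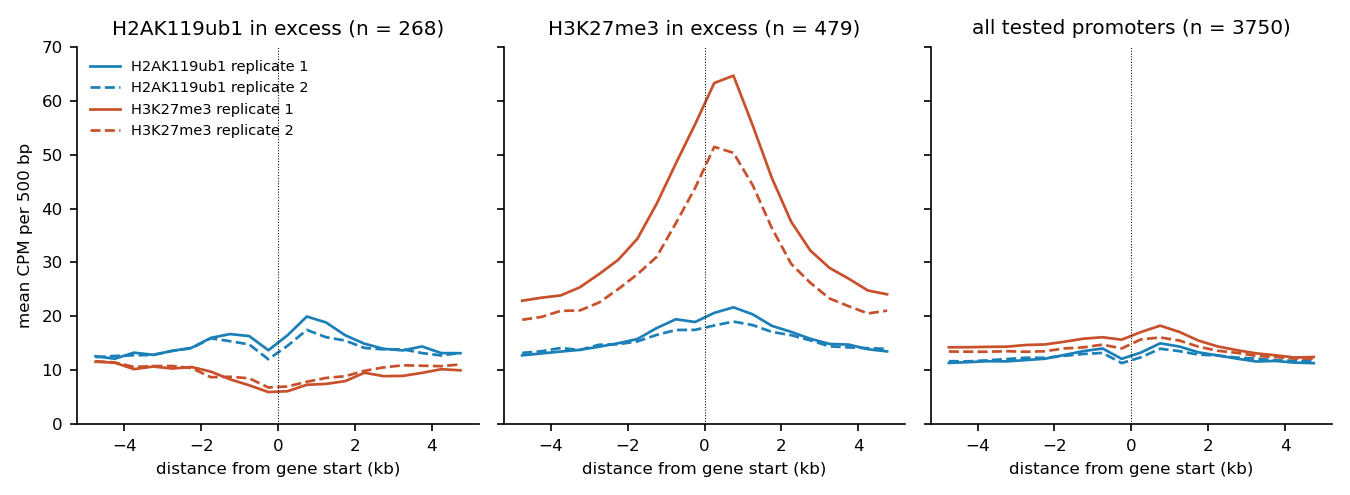
Mean CPM per 500 bp (vertical) by distance from the gene start in kb (horizontal) for the 268 promoters with H2AK119ub1 in excess, the 479 with H3K27me3 in excess and all 3750 tested; blue lines are H2AK119ub1 and orange lines H3K27me3, solid for replicate 1 and dashed for replicate 2. H3K27me3 rises to 64.7 and 51.5 CPM at the starts of the middle set and dips at the starts of the left set, while H2AK119ub1 peaks at 20.0 and 17.5 in the left set and 21.7 and 19.03 in the middle set.

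The sets also stood apart in the marks of active promoters, measured in 4 further WT libraries that the calls did not use. H3K27me3-excess promoters had a median of 48.8 and 50.3 CPM of H3K4me3 in the 2 libraries, against 176.1 and 177 over all autosomal promoters and 298 and 295 at H2AK119ub1-excess promoters. Their H3K27ac medians were 40.3 and 43.2 CPM, against 126 and 125 over all and 200.5 and 202 at H2AK119ub1-excess promoters. The order was the same in each library. High active marks were not particular to the H2AK119ub1-excess set, whose medians were 291 CPM of H3K4me3, 202 of H3K27ac and 61.8 of H3K27me3. In groups 3, 4 and 5 of the 10 ordered by H3K27me3, its medians were 60.6, 70.4 and 80.2 CPM. Those groups had medians of 247, 265 and 276 CPM of H3K4me3 and 178, 192.5 and 199 of H3K27ac. The lowest group had 144 and 118. Low active marks were likewise not particular to the H3K27me3-excess set, whose medians were 50.2 CPM of H3K4me3 and 41.7 of H3K27ac. Group 9, with 123 of its 379 promoters in that set, had 87.1 and 61.2. Group 10, with 338 of 379 in it, had 61.6 and 46.0. Of the H3K27me3-excess promoters 2.92% lay above the median of H3K27ac and 9.19% above that of H3K4me3, while of the H2AK119ub1-excess promoters 76.1% and 70.1% did, and 69 of 268 were in the top 10% of H3K4me3. Zfp703 had 760 and 742 CPM of H3K4me3 and Fscn1 525 and 613, whereas Foxd1 had 45.5 and 35.0 and Gata2 43.0 and 45.2. Of the 268 H2AK119ub1-excess promoters, 80 lay below the H3K4me3 median of 175.5 CPM. Among them were H2-Ke6, with 108 and 124 CPM, and Cnih2 and Ddah2, with a mean of 60.3 and 66.0 CPM. Of the 201 promoters rich in both Polycomb marks, 33 had H3K4me3 at or above the median and 0 were in its top 10%. Among the former were Sfrp1 with 186 and 171 CPM, and Gata6 and Ndnf with a mean of 185 and 208 CPM.

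**Figure D4:**
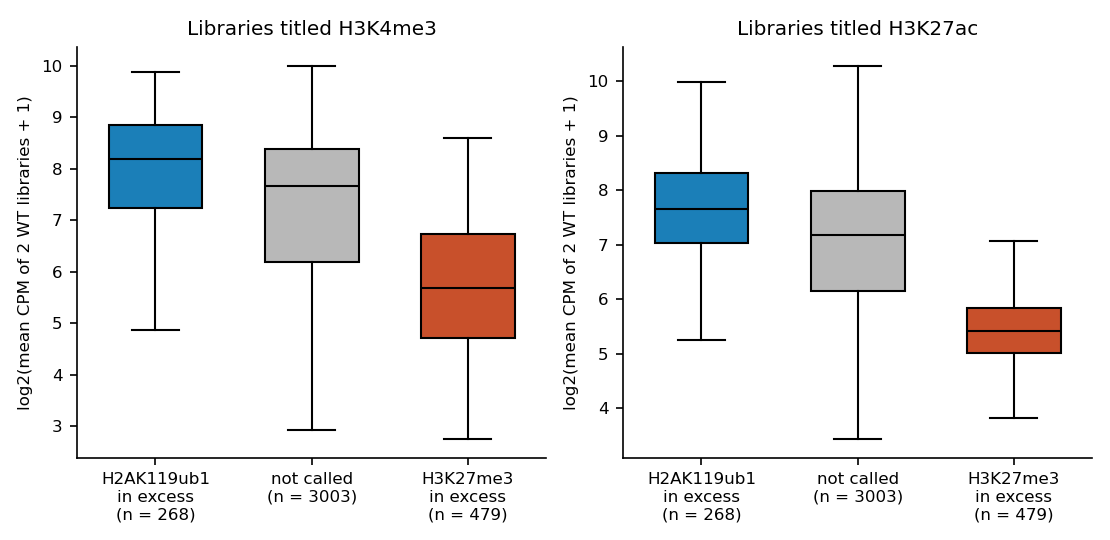
Log2 of the mean CPM of 2 WT libraries plus 1 (vertical) of the libraries titled H3K4me3 (left) and H3K27ac (right) at promoters grouped by call; boxes span the quartiles with the median as a line, and whiskers reach the last value within 1.5 box lengths. In both panels the H2AK119ub1-excess group is highest and the H3K27me3-excess group lowest.

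Developmental transcription factors leaned to H3K27me3. Of 30 tested, 14 were called as H3K27me3 excess (46.7%, beside 12.8% of all tested promoters) and 4 as H2AK119ub1 excess (13.3%, beside 7.15%). Their median log2 ratio was -0.72 beside 0.12 for all promoters, and 8 were rich in both marks. Besides Foxd1 and Gata2, Vax2, an eye homeobox gene, held 899 and 646 CPM of H3K27me3 and 218 and 187 of H2AK119ub1. Gata6 and Foxf1, regulators of endoderm and of lung mesenchyme, held a mean of 761 and 767 CPM of H3K27me3 and 221 and 243 of H2AK119ub1. Gsc, Irx1, Tbx2, Sox11, Pax8, Eya2, Otx1, Pitx1 and Neurod1 were called in the same direction, of which Eya2, Otx1, Pitx1 and Neurod1 lost the call without H2AK119ub1 replicate 2. The 4 with H2AK119ub1 in excess were Atoh8, Twist2, a mesenchymal factor, and Emx2 and Irx2, whose windows overlap those of other genes. Atoh8 kept its call under every alternative, while Twist2, Emx2 and Irx2 lost theirs without H2AK119ub1 replicate 1. These 4 had a mean H3K4me3 of 364 CPM or more, and the called H3K27me3-excess members 185 CPM or less. Of 5 Hox genes tested, only Hoxc10 was called, with 143 and 151 CPM of H2AK119ub1 and 67.6 and 85.2 of H3K27me3 (edgeR adjusted p = 0.0117), and that call was lost without either H2AK119ub1 replicate or without H3K27me3 replicate 1. Hoxc13 had 135 and 166 CPM of H2AK119ub1 and 81.1 and 122 of H3K27me3 and Hoxa2 135 and 180 beside 72.1 and 144, both without a call (edgeR adjusted p = 0.152 and 0.191).

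The Wnt pathway was divided between the marks. Of 24 members tested, 12 were called as H3K27me3 excess and 5 as H2AK119ub1 excess (median log2 ratio -0.39). Among all tested promoters the shares called in these directions were 12.8% and 7.15%. Among ligands, Wnt4 and Wnt11 had H3K27me3 in excess, with means of 245 and 349 CPM of H3K27me3 and 104 and 150.1 of H2AK119ub1, whereas Wnt10b had H2AK119ub1 in excess, and Wnt5a and Wnt9a were not called. Among receptors, Fzd3 held 663 and 511 CPM of H3K27me3 and 153 and 131 of H2AK119ub1 (log2 ratio -2.05 ± 0.28, edgeR adjusted p = 1.76e-06). Fzd7 showed the reverse, with 165 and 129 CPM of H2AK119ub1 and 64.9 and 48.2 of H3K27me3 (log2 ratio 1.38 ± 0.29, edgeR adjusted p = 0.000577). The H2AK119ub1 levels of Fzd3 and Fzd7 overlapped, so their contrast lay in H3K27me3. Fzd1 and Lgr6 were called like Fzd7, though both lost the call without H2AK119ub1 replicate 1, and the co-receptors Ror1 and Ror2 were called like Fzd3. The secreted or intracellular inhibitors Sfrp1, Sfrp4, Wif1, Nkd2 and Axin2 had H3K27me3 in excess, as did Daam2 and the transcription factor Tcf7 (368 and 472 CPM of H3K27me3, 145 and 145 of H2AK119ub1). Dkk3, a further secreted member of the list, was not called (edgeR adjusted p = 0.722). It held a mean of 78.75 CPM of H2AK119ub1 and 68.25 of H3K27me3. Tcf7l2, a factor of the same family, was called for H2AK119ub1 excess at an edgeR adjusted p of 0.0402, which no fit with a library left out kept. Without H2AK119ub1 replicate 1 the H2AK119ub1 calls of the list were 2 and without replicate 2 they were 3. The H3K27me3 calls were 10, without Daam2 and Sfrp4, and 8, without Wnt4, Wnt11, Nkd2 and Sfrp4. The window of Sfrp4 is shared with another gene.

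In BMP, TGF-beta, Hedgehog, FGF and Notch signalling, 14 of 31 members were called as H3K27me3 excess and 2 as H2AK119ub1 excess, with a median log2 ratio of -0.23. These shares were 45.2% and 6.45%, beside 12.8% and 7.15% of all tested promoters. The BMP and activin antagonists Nog, Grem1, Chrd, Fst and Bmper were all among the 14, Chrd in a window shared with another gene. Grem1, a BMP antagonist that also marks skeletal progenitors, held 722 and 531 CPM of H3K27me3 and 215 and 179 of H2AK119ub1. Spry1, a feedback inhibitor of FGF receptors, held 605 and 407 CPM of H3K27me3 beside 161 and 125 of H2AK119ub1. The Notch ligands Jag1 and Jag2, the Notch target Hey2, the Hedgehog effector Gli2 and inhibitor Hhip, Fgfr3, Fgf18 and Bmp4 were the rest. Gli3, the Hedgehog repressor, and Fstl3, another activin antagonist, had H2AK119ub1 in excess, and both lost the call without H2AK119ub1 replicate 1. The TGF-beta receptors Tgfbr2 and Tgfbr3 and Smad3 and Smad9 were not called. The H3K27me3 calls of the list fell to 6 without H2AK119ub1 replicate 2, those of Nog, Spry1, Grem1, Chrd, Jag1 and Jag2. They fell to 8 without H3K27me3 replicate 1, which ended the calls of Bmp4, Bmper, Fgf18, Fgfr3, Hey2 and Hhip. Hey2 and Hhip were near the threshold (edgeR adjusted p = 0.0486 and 0.0497).

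Guidance and neuronal genes followed the same direction. Of 29 axon guidance genes, 8 had H3K27me3 in excess (27.6%, beside 12.8% of all tested promoters). They were led by the ephrin Efna3 (681 and 605 CPM of H3K27me3, 237 and 173 of H2AK119ub1) and the semaphorins Sema3f and Sema4d. In the other direction, 3 had H2AK119ub1 in excess (10.3%, beside 7.15%). These 3 were Plxna1, Nrp1, the neuropilin that binds semaphorins and VEGF, and the ephrin Efnb2, with a mean of 418, 701 and 504 CPM of H3K4me3. Leaving out 1 library ended each of these 3 calls. Of 18 neuronal channel and synaptic genes, 6 (33.3%) had H3K27me3 and 1 (5.56%) had H2AK119ub1 in excess. Among the 6 were the calcium channel genes Cacna1g and Cacna2d3 and the potassium channel gene Kcnma1 (835 and 625 CPM of H3K27me3, 215 and 216 of H2AK119ub1).

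Of 8 genes of the Polycomb machinery tested, 2 were called as H3K27me3 excess and 1 as H2AK119ub1 excess. The shares of all tested promoters were 12.8% and 7.15%, and whether so short a list exceeds them was not tested. Epop and Phf19, which encode accessory subunits of PRC2, were rich in both marks. Epop held 754 and 544 CPM of H3K27me3 and 240.4 and 204 of H2AK119ub1 (log2 ratio -1.54 ± 0.27, edgeR adjusted p = 5.55e-05), and Phf19 held 558 and 517 beside 208 and 193 (log2 ratio -1.42 ± 0.27, edgeR adjusted p = 0.000118). Pcgf2, which encodes a PRC1 subunit, had 128 and 109 CPM of H2AK119ub1 and 42.4 and 52.3 of H3K27me3 (log2 ratio 1.32 ± 0.31, edgeR adjusted p = 0.00152), and its call was lost without H2AK119ub1 replicate 1. Its H3K4me3 was 508 and 565 CPM, against 50.01 and 50.5 at Phf19. Bmi1, Cbx7, Ezh1, Foxk2 and Mysm1 were not called.

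Of 14 stromal progenitor markers tested, 1, Grem1, was called as H3K27me3 excess and 0 as H2AK119ub1 excess, beside 12.8% and 7.15% of all tested promoters. Cxcl12, the chemokine that retains blood stem cells in marrow, was in the top 10% of H2AK119ub1 with 263 and 161 CPM beside 152 and 129 of H3K27me3, and had a mean of 613 CPM of H3K4me3 (log2 ratio 0.59 ± 0.28, edgeR adjusted p = 0.133). Kitl, the stem cell factor gene, had 163 and 139 CPM of H2AK119ub1 and 141 and 74.8 of H3K27me3 (edgeR adjusted p = 0.234), with overlapping libraries. Of 18 niche factors, 3 had H3K27me3 in excess: Thpo, the thrombopoietin gene (690.4 and 525 CPM of H3K27me3, 231 and 163 of H2AK119ub1), Jag1 and Bmp4. Thpo and Bmp4 lie in shared windows. Mdk, encoding midkine, was the 1 niche factor with H2AK119ub1 in excess, a call lost with either H2AK119ub1 library left out.

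In the osteoblast and the collagen and matrix lists the shares called were near those of all promoters (12.8% for H3K27me3 and 7.15% for H2AK119ub1 excess). They were 9.09% in each direction among osteoblast genes and 12.1% and 9.09% among collagen and matrix genes. In the same order, they were 0% and 12.5% among 8 cartilage and tendon genes and 20.0% and 0% among 15 adipocyte and lipid genes. Among 11 osteoblast genes Bmp4 had H3K27me3 in excess (443 and 384 CPM against 245 and 171 of H2AK119ub1, a call lost without H2AK119ub1 replicate 2) and Wnt10b H2AK119ub1. Among 8 cartilage and tendon genes only Scx, the tendon factor scleraxis, was called, with 131 and 146 CPM of H2AK119ub1 and 55.0 and 97.3 of H3K27me3 (edgeR adjusted p = 0.0313), and the call was lost without either H2AK119ub1 replicate. Sox9 was not called (edgeR adjusted p = 0.345). Among 15 adipocyte and lipid genes Klf15, Zfp467 and Lpl had H3K27me3 in excess. All 3 were rich in both marks, though the call of Lpl was lost in 3 of the 4 fits with a library left out, Klf15 with 695 and 535 CPM of H3K27me3 and 206 and 164 of H2AK119ub1. Pparg, the master factor of fat cells, had 127 and 130 CPM of H2AK119ub1 and 80.2 and 78.8 of H3K27me3, libraries that did not overlap but did not pass the test (log2 ratio 0.69 ± 0.28, edgeR adjusted p = 0.0743). Among 33 collagen and matrix genes 4 had H3K27me3 in excess, Col14a1 (898 and 585 CPM), Col27a1, Col4a3 and Fbln5, and 3 had H2AK119ub1 in excess, Lamb1, Col16a1 and Loxl3, the last in a shared window. The calls of Col16a1, Loxl3 and Fbln5 were lost without H2AK119ub1 replicate 1. The major bone collagen Col1a1 was not called, with 79.6 and 113 CPM of H2AK119ub1 and 46.0 and 74.8 of H3K27me3 (edgeR adjusted p = 0.146).

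Of the remaining lists, 20 cytokine and immune genes gave H2AK119ub1 excess at Socs1 and Socs3, feedback inhibitors of cytokine receptors, and H3K27me3 excess at Cxcl14. These were 10.0% and 5.0% of that list, beside 7.15% and 12.8% of all tested promoters. In the same order, the shares were 14.3% and 14.3% among the cell cycle and p53 genes and 1.49% and 8.96% among the Zfp genes. Ribosomal, mitochondrial, translation and proteasome names gave 7.69% and 0%. Both Socs calls were lost without either H2AK119ub1 replicate, and that of Cxcl14 (413 and 342 CPM of H3K27me3, 184 and 144 of H2AK119ub1) was lost without H2AK119ub1 replicate 2. Of 7 cell cycle and p53 genes Gadd45a had H2AK119ub1 and Perp H3K27me3 in excess, near the threshold (edgeR adjusted p = 0.0332 and 0.0239), and neither call survived the loss of either H2AK119ub1 library. Of 3 haematopoietic genes tested, Lcp1, the leukocyte plastin gene, had H3K27me3 in excess (543 and 439 CPM, against 157 and 167 of H2AK119ub1), and of 2 endothelial genes none was called. The 26 genes with ribosomal, mitochondrial, translation and proteasome names gave 2 H2AK119ub1 calls, Ndufaf8, an assembly factor of a respiratory complex, and Psmb8, an immunoproteasome subunit, and no H3K27me3 call. Psmb8 lost its call in all 4 fits with a library left out, and Ndufaf8 without H2AK119ub1 replicate 2. The median member of that list had 86.7 CPM of H2AK119ub1 and 72.2 of H3K27me3. Of 67 zinc finger genes named Zfp, 6 had H3K27me3 in excess, among them Zfp105 and Zfp467, and 1, Zfp703, had H2AK119ub1 in excess. The Zfp list was low in both marks, with a median of 61.2 and 58.0 CPM. Median log2 ratios of the adipocyte, cartilage, stromal marker, endothelial and Zfp lists lay near 0 and changed sign with the scaling, whereas those of the other lists kept theirs under the 3 other scalings tried.

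**Figure D5:**
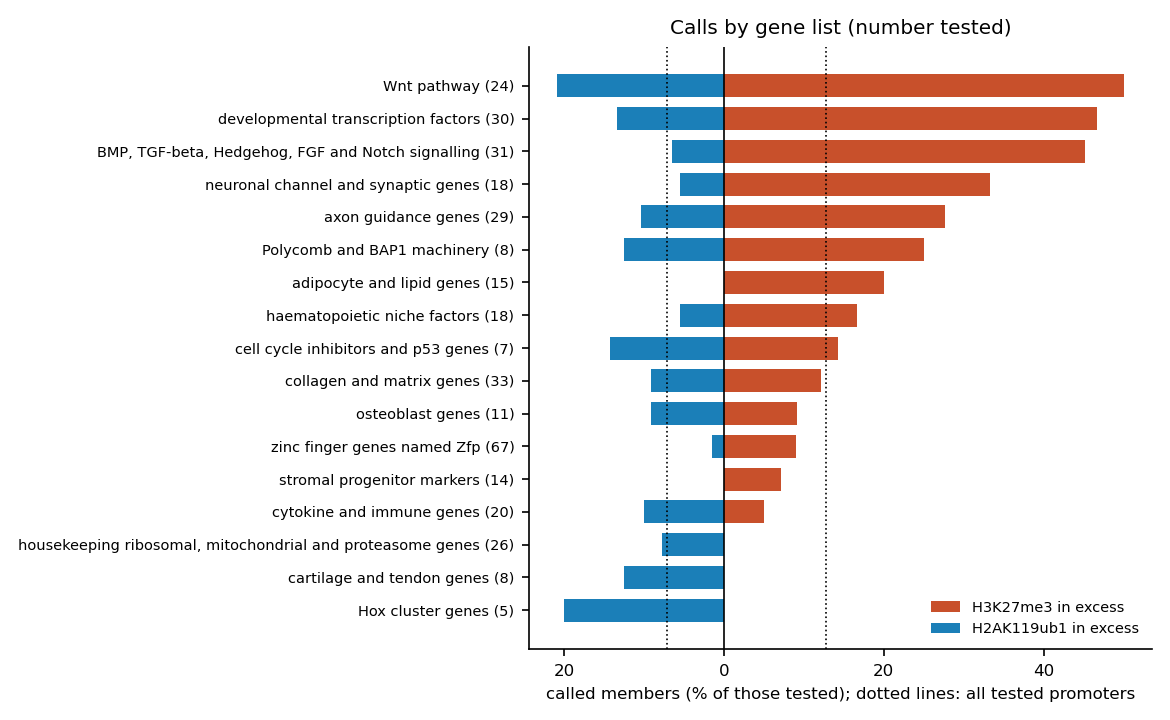
Share of the tested members of each gene list that were called (horizontal, percent; left in blue for H2AK119ub1 in excess, right in orange for H3K27me3 in excess), with the number tested beside each name and dotted lines at 7.15% and 12.8%, the shares of all tested promoters. The Wnt pathway, developmental transcription factors and the BMP to Notch list have the highest shares of H3K27me3 excess, with 12 of 24, 14 of 30 and 14 of 31 members.

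The same promoters were then read in the 4 cKO libraries of both marks, which took no part in the calls and lack BAP1 by their labels. Both cKO H3K27me3 libraries lay above both cKO H2AK119ub1 libraries at 345 of the 479 WT H3K27me3-excess promoters (72.0%), beside 28.9% of all tested. Both cKO H2AK119ub1 libraries lay above both H3K27me3 libraries at 179 of the 268 H2AK119ub1-excess promoters (66.8%), beside 39.8% of all. Igf2bp1 remained at a mean of 239 CPM of H2AK119ub1 and 1019 of H3K27me3 in cKO, but it was not typical. The other promoters among the 12 highest in both marks had less H3K27me3 in cKO, such as Sfrp1 (952 CPM in WT, 556 in cKO). Col1a1, on chromosome 11 like Igf2bp1, held 215 CPM of H2AK119ub1 and 191 of H3K27me3 in cKO, beside 96.3 and 60.4 in WT. Pcgf2 on that chromosome was also higher in both marks, while Cacna1g was lower in both. A regional difference was not tested. Foxd1, the clearest case in WT, held a mean of 125 CPM of H2AK119ub1 and 106 of H3K27me3 in cKO, and Phf19 held 128 and 68.6. Across the H3K27me3-excess set the median of H3K27me3 was 187 and 198 CPM in the cKO libraries, beside 377 and 290.2 in the WT libraries whose values chose the set. Over all autosomal promoters it was 96.7 and 93.0 CPM in cKO and 84.7 and 86.0 in WT. The WT and cKO libraries were scaled separately, so CPM of the 2 genotypes do not share a scale.

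Of the H3K27me3-excess promoters, 345 (72.0%) carried the authors' mark UP, beside 48.8% of all autosomal promoters and 42.2% of the H2AK119ub1-excess promoters. No source used here says what UP and DOWN compare. By chromosome, the median log2 ratio ran from 0.0012 on chromosome 14 to 0.26 on chromosome 11.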

How the data were processed

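ChIP-seq of H2AK119ub1 and H3K27me3 was compared in 2 WT libraries each, grouped by their titles. Per the file headers, the authors deposited raw counts for 785000 bins of 50 bp, 200 around each of 3925 gene starts. Tools listed by the submitters' processing notes are bedtools 2.30.0, SAMtools 1.9, Picard 2.25.5, Bowtie2 2.4.5 and cutadapt 1.18, and the build is GRCm38. Each read was counted in 3 neighbouring bins, so summed counts are not independent reads.

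Bins 61 to 140 were summed as promoter counts (4 kb) and tested with the robust quasi-likelihood fit of edgeR 4.0.16 under R 4.3.3, with the mark as the only term, after filterByExpr with a minimum count of 10, which left out 39 promoters. Library sizes, for the test and for CPM, were autosomal totals times TMM factors computed over the 10 kb windows. The cKO libraries were scaled among themselves by the same method, and H3K4me3 and H3K27ac are CPM of autosomal totals. Correlations use log2(CPM + 1). P-values were adjusted by Benjamini-Hochberg at 0.05 over all 3750 tested promoters. Input libraries were not used here. The script was tested on simulated data.

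Names were assigned by position: a RefSeq gene start of GRCm38.p6 on the window's strand within 500 bp of its centre, which named 3399 genes (86.6%), while 121 windows (3.08%) shifted by 20 kb found a name. The central 4 kb of 296 autosomal promoters overlaps another's. RefSeq promoter sequences matched 2523 of the 3789 promoters (66.6%), under the 80% needed, so a comparison of CpG content between sets was void and was not made. Coordinates are 1-based.

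The named genes are, for each direction, the 12 of lowest p among promoters with separate libraries, the 12 highest in both marks among those rich in both, the 3 members of lowest p of each gene list, and Cxcl12, Kitl, Pparg, Sox9, Foxd1, Phf19 and Hoxc13 (Cdkn2a was not analysed here), leaving out predicted, clone and receptor names. Other list members were named after their values were seen. A few genes that the rule takes are not reported here. The members, lists and rule were chosen with earlier results of these data known. Alternatives were other scalings, no filter, promoters of 1 kb or 5 kb to each side, 1 bin in 3, all 16 libraries in 1 fit, the replicate number as a block, shared windows left out, each library left out, DESeq2 1.42.0, and the top 5% or 20% for classes.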

Additional observations from a re-analysis of the deposited data

How the results depend on the processing

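The count of H3K27me3-excess promoters (479) stayed within 1.5 times under every alternative that kept all 4 libraries, from 389 with total counts to 631 with 5 kb to each side, and ranged from 251 to 510 with each library left out. The count of H2AK119ub1-excess promoters (268) moved further: 517 with total counts, 560 with library sizes from the outer flanks, 126 with 1 kb to each side, 451 with all 16 libraries in 1 fit, 109 with DESeq2, and 37 to 334 with each library left out. Of the 268, DESeq2 called 109 and the fit with 1 kb to each side 94. With a library left out, the lone library of its mark is assumed to vary like the pair of the other mark. Of the 268 promoters 11 and of the 479 promoters 200 kept their call in all alternatives that included them. No call changed its direction, except 2 H2AK119ub1 calls at 1 kb and 2 at 5 kb to each side, whose sign did.

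The promoters rich in both marks (201) were 84 at the top 5% and 463 at the top 20%, those rich in H2AK119ub1 alone (13) were 2 and 58, and those rich in H3K27me3 alone (9) were 1 and 55, as smaller or larger lists were taken, and ranged from 7 to 21 with each library left out. The correlation of the marks across promoters was 0.770 at 1 kb, 0.843 at 5 kb and 0.526 above both medians, and 0.756 to 0.817 with each library left out. Among the named genes 1 ratio reversed, that of Fcer1g, which was not called (Fcer1g: log2 H2AK119ub1 over H3K27me3 0.12): it was -0.0476 without H2AK119ub1 replicate 1 and reached 0.329 without replicate 2.

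With the replicate number as a block, 311 promoters had H2AK119ub1 and 535 H3K27me3 in excess, and 83 of 83 named genes kept their side of the threshold. Same-numbered libraries share only a number: their deviations correlated at 0.0595 across promoters. The H3K27me3 libraries limit the depth, with a median of 94 and 107 counts a promoter, each read counted 3 times, so smaller differences at low promoters were not detectable. A shift common to all windows is not detectable either. The cause of the differences between settings was not tested.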
